A study of Mus musculus with 12 samples.

Results

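Expression of 10 homeobox genes that mark regional identity in the hindbrain (En1, En2, Gbx2, Irx1, Irx2, Irx3, Irx5, Meis1, Meis2 and Pbx3) was followed in astrocytes of the postnatal mouse cerebellum. The genes were taken by symbol from the deposited expression table, and all 10 were found among its 24421 entries. RNA had been sequenced from GFP-sorted cells of Aldh1l1-GFP mice, a reporter line in which GFP is driven by the promoter of Aldh1l1, a folate enzyme used as a pan-astrocyte marker. The 4 groups of 3 libraries were mice at P1, P7, P14 and P28 (postnatal day), all of the same reporter genotype on a C57/BL6J background, from both sexes, with no treatment and no GFP-negative fraction among the groups. GFP is the only marker of the sort named in the sources used here, so that other cells with an active reporter could have entered it. How many animals went into a library is not given there. Each library held between 6399499 and 14733985 reads assigned to genes. Values are normalized counts, which are reads divided by the size factor of the library.

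Engrailed genes (En1 and En2) encode homeodomain repressors that pattern the midbrain and the anterior hindbrain, the territory from which the cerebellum forms. Gbx2 acts on the hindbrain side of the midbrain-hindbrain boundary, where it and Otx2 repress each other. Iroquois (Irx), Meis and Pbx proteins belong to the TALE class of homeodomain proteins; Iroquois genes act in regional patterning, while Meis and Pbx proteins bind DNA jointly with each other and with Hox and other homeodomain proteins.

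All 10 genes passed the filter on low values, Gbx2 only through its 3 P1 libraries and 1 P7 library, and En1 through 9 libraries of P1, P7 and P14. Since the filter let Gbx2 in through the age at which it was high, it is left out of the counts and medians that involve P1 and is described on its own. Levels of 5 of the other 9 genes differed among the 4 time points by limma's moderated F test at an adjusted p under 0.05, a call that 43.8% of the 15464 genes tested also received. The 5 genes were En1, Irx2, Meis1, Meis2 and Pbx3, the last with the adjusted p nearest the threshold (0.0474). The call of Pbx3 was lost with TMM scaling (adjusted p = 0.0584), with no filter on low values (0.0629), with a pseudocount of 0.1 (0.0562), and without P1 replicate 1, P28 replicate 1 or 3, or any 1 of the P7 and P14 libraries (from 0.0520 to 0.148). Irx3 passed the same test without P28 replicate 3 (adjusted p = 0.0322). The other 4 genes, En2, Irx1, Irx3 and Irx5, passed neither this test nor any of the comparisons between time points. Because RNA was measured in bulk, fewer cells of a type and less RNA per cell cannot be told apart for any of these genes.

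**Figure D1:**
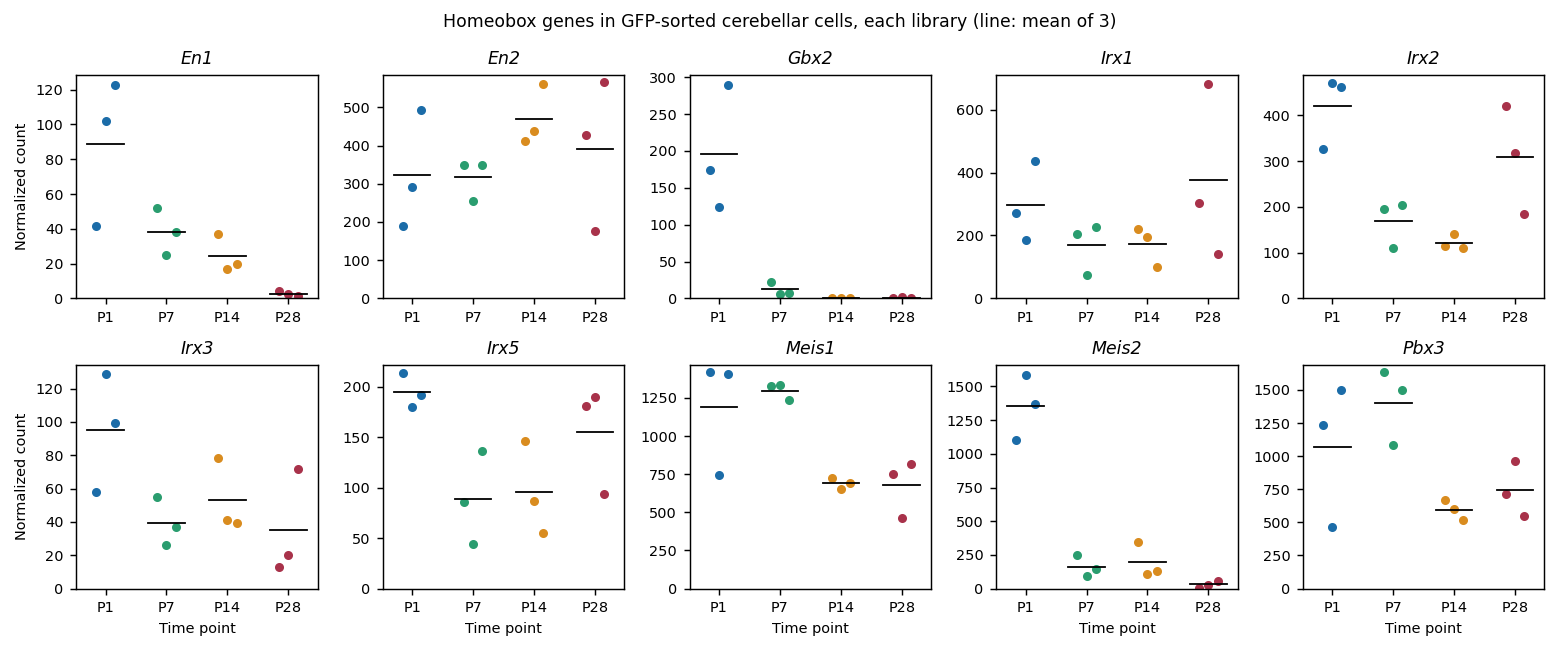
Normalized count of each of the 10 homeobox genes (y axis, linear from 0) in each library at P1, P7, P14 and P28 (x axis); points are libraries and black lines are means of 3. Gbx2 was between 124 and 289 at P1 and at 0 in all P14 libraries, Meis2 was at 1106 or more at P1 and at 347 or less later, and the libraries of En2 overlapped in 5 of the 6 pairs of time points.

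From P1 to P7, Meis2 and Irx2 fell and none of the 9 genes other than Gbx2 rose, beside 4.24% of all genes tested that were lower and 3.47% that were higher at P7. Neither passed when any 1 of the P1 libraries, P7 replicate 2 or P7 replicate 3 was left out. P7 replicate 2, the library with the fewest reads (6399499) and with the highest sum of endothelial markers (1022 CPM, recovered reads scaled to the total of the library, against 251 and 169 in the other P7 libraries), was the lowest P7 library for all of the 10 genes but Meis1, and the part of these differences in the falls from P1 to P7 was not tested. From P7 to P14, Gbx2, Meis1 and Pbx3 fell and none rose, beside 10.0% lower and 10.8% higher. From P14 to P28, En1 and Meis2 fell and Irx2 rose, beside 8.76% lower and 5.68% higher. When only the P14 and P28 libraries were fitted, none of these 3 passed (adjusted p from 0.114 to 0.158). Between P1 and P28, En1, Meis1 and Meis2 were lower at P28 and none of the 9 genes was higher, beside 20.0% lower and 14.6% higher. The median log2 fold change of the 9 genes was -1.12 from P1 to P7, where the median of all genes tested was 0.04. It was -0.16 from P7 to P14 over the 10 genes with Gbx2 set at its bound (all genes -0.09), -0.07 from P14 to P28 over the 9 genes (all genes -0.12), and -0.51 between P1 and P28 (all genes -0.24). With 1 library left out, these medians ran from -1.31 (without P7 replicate 1) to -0.82 (without P1 replicate 3), from -0.56 (without P7 replicate 2) to 0.01 (without P14 replicate 3), from -0.22 (without P28 replicate 3) to 0.09 (without P28 replicate 2), and from -0.91 (without P1 replicate 2) to -0.20 (without P28 replicate 3), so that the sign of the second and the third depended on single libraries.

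**Figure D2:**
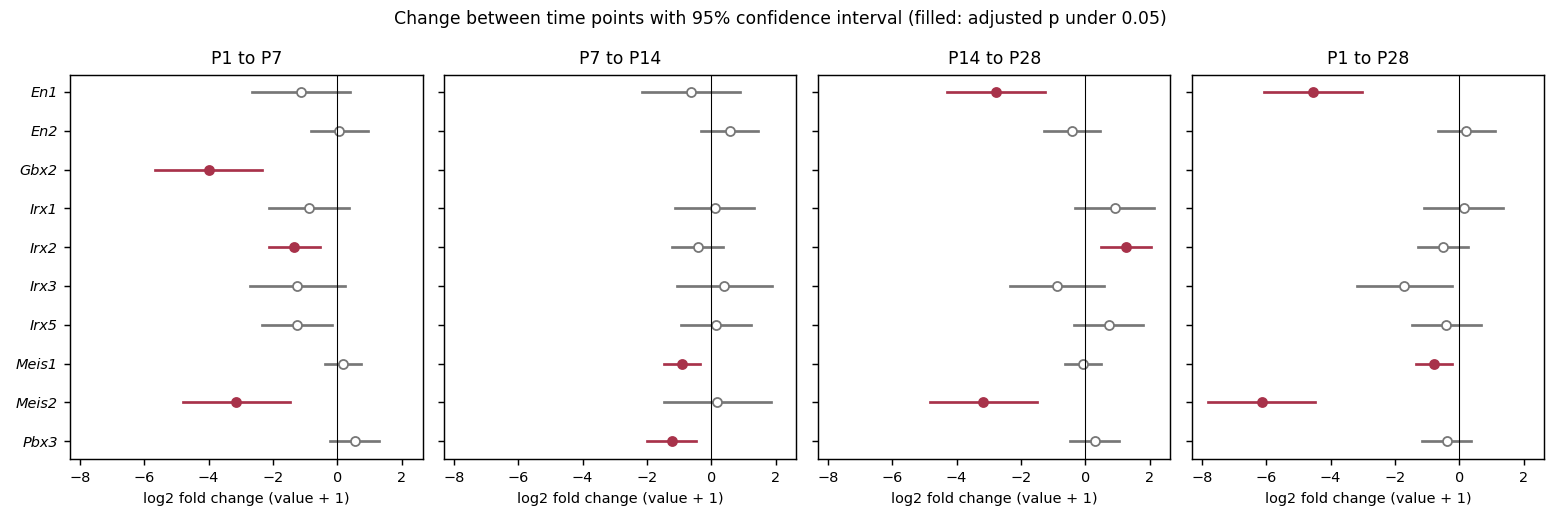
Log2 fold change of each gene (x axis, on the log2(value + 1) scale, negative where the later time point was lower) with its 95% confidence interval, for 4 comparisons of time points. Filled red points passed limma's test at an adjusted p under 0.05, and Gbx2 is drawn only from P1 to P7 because its later libraries held at most 1 read. The Gbx2 point is not counted as a call, since the filter admitted this gene through its P1 libraries. Irx2 from P14 to P28 was the only call to the right of 0.

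Gbx2 (ENSMUSG00000034486.8; GRCm38 chr1:89927956-89931179, minus strand) was the only gene of the 10 to reach 0 reads at a whole time point. Its normalized counts were 175, 124 and 289 in the P1 libraries, and 22.3, 6.54 and 7.75 in the P7 libraries. No read was assigned to it in any P14 library, and 1 read, in replicate 2 (1.18 normalized counts), at P28. The 3 P1 libraries lay far above all others, the P7 libraries lay between, and the groups overlapped only between P14 and P28. The mean was 196 ± 84.8 at P1 and 12.2 ± 8.77 at P7 (SD, n = 3), and the log2 fold change from P1 to P7 was -4.00 (SE 0.78). No p-value is given for falls of Gbx2 from P1, since the filter admitted it through its P1 libraries and so favoured such a fall. With 0 reads at P14, which allows up to 3 reads over the group or 1.07 normalized counts, Gbx2 was at least 12.2-fold lower at P14 than at P7 (43 reads) and passed the test (adjusted p = 0.00478). That bound was at least 6.84-fold without P7 replicate 1, and at least 8.08-fold without P14 replicate 1 or without P14 replicate 2; with a pseudocount of 10 the adjusted p of this step was 0.0767. Against P1, where it had 839 reads, Gbx2 was at least 181-fold lower at P14. This bound was at least 120-fold without P14 replicate 1 or replicate 2. The 1 read at P28 put the ratio of P1 to P28 at 439 with an exact 95% interval from 78.5 to 17343, and without P28 replicate 2 Gbx2 was at least 91.6-fold lower at P28. These intervals and bounds cover counting error only.

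En1 (ENSMUSG00000058665.8; GRCm38 chr1:120602418-120607992, plus strand) was highest at P1 and lowest at P28. Normalized counts were 41.8, 102 and 123 at P1, 51.8, 24.9 and 38.0 at P7, 37.1, 16.9 and 19.5 at P14, and 4.38, 2.36 and 1.35 at P28, the last from 6 reads in all. Each P28 library lay below every library of the other 3 time points, while P1 overlapped with P7 and P7 with P14. En1 fell from P14 (24.5 ± 11.0) to P28 (2.70 ± 1.54, SD, n = 3) with a log2 fold change of -2.79 (SE 0.71, adjusted p = 0.0189). Without P14 replicate 1 this change was -2.46 and did not pass (adjusted p = 0.0693), and it did not pass with a pseudocount of 10 (adjusted p = 0.0577). Between P1 (88.9 ± 42.0, n = 3) and P28 the log2 fold change was -4.55 (SE 0.71, adjusted p = 2.29e-04), and no alternative to the test ended that call while the gene was tested. From P1 to P7 and from P7 to P14 the log2 fold changes were -1.12 (95% confidence interval -2.64 to 0.40) and -0.64 (-2.16 to 0.88), and neither passed.

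En2 (ENSMUSG00000039095.8; GRCm38 chr5:28165694-28172166, plus strand), the paralog of En1, had no called change with age. Its values were 188, 292 and 492 at P1, 349, 254 and 348 at P7, 412, 439 and 560.4 at P14, and 428, 177 and 567 at P28. P14 libraries lay above P7 libraries and all other groups overlapped, with libraries of P1 and P28 spread most widely. None of the 4 comparisons passed, and the interval of the P1 to P28 difference ran from -0.66 to 1.11 on the log2 scale around 0.22, a value whose sign turned when libraries were scaled by their totals alone (-0.21). Per length of exon, En2 was the more abundant paralog at every time point. Mean levels of En2 and En1 were 10.3 and 3.80 RPKM (recovered reads scaled to exon length in kb and to the total of the library) at P1, and 9.07 and 0.0862 at P28. The ratio of En2 to En1 on that scale was 2.71, 6.16, 14.2 and 105 at the successive ages, given here as a description since the change of the ratio was not tested. The P28 ratio, which rests on 6 reads of En1, was 66.7 without P28 replicate 3.

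**Figure D3:**
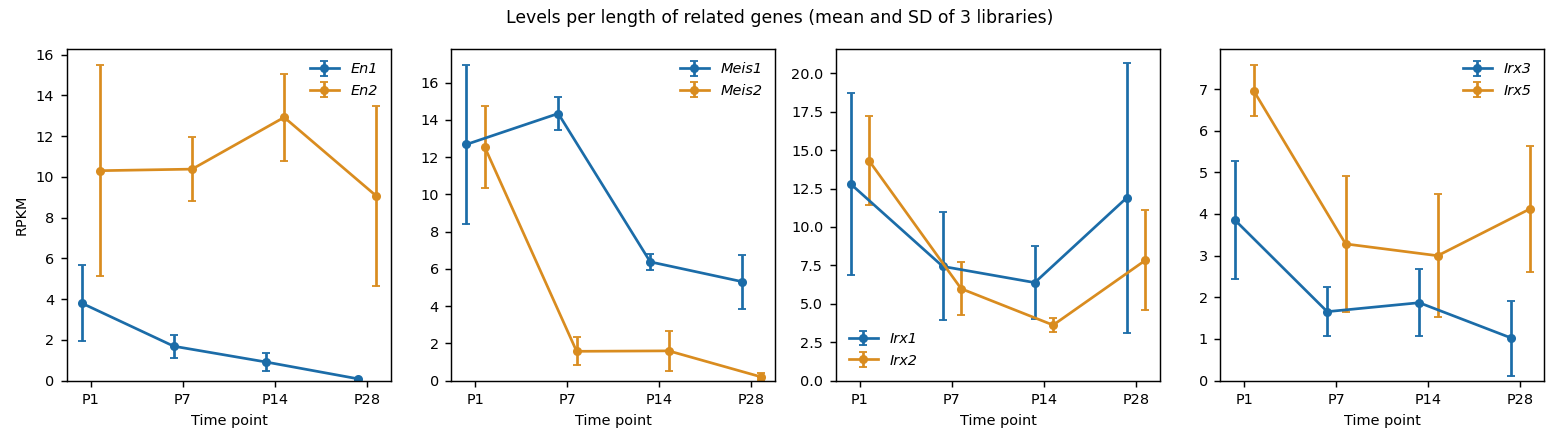
Levels of related genes (y axis, RPKM, linear from 0) at each time point (x axis), as the mean of 3 libraries with SD bars. En1 and Meis2 approached 0 at P28 (0.0862 and 0.202), while En2 and Meis1 stood at 9.07 and 5.31.

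Meis2 (ENSMUSG00000027210.20; GRCm38 chr2:115863064-116065839, minus strand) had a pattern of 3 levels. Normalized counts were 1106, 1583 and 1374 at P1, 251, 95.5 and 143 at P7, 347, 110.0 and 131 at P14, and 2.92, 28.3 and 59.5 at P28. The value of P28 replicate 1 came from 2 reads. All P1 libraries lay above every other library, all P28 libraries lay below, and those of P7 and P14 overlapped between them. Meis2 fell from P1 (1354 ± 239) to P7 (163 ± 79.5, SD, n = 3) by a log2 fold change of -3.14 (SE 0.78, adjusted p = 0.0227), and again from P14 (196 ± 131) to P28 (30.2 ± 28.3, n = 3) by -3.17 (SE 0.78, adjusted p = 0.0157). From P7 to P14 the log2 fold change was 0.18 (95% confidence interval -1.48 to 1.85), with its sign turned to -0.07 when libraries were scaled by totals alone. The call from P1 to P7 was lost without any 1 of the P1 libraries or without P7 replicate 2 or 3 (log2 fold changes of -3.28 to -2.81, adjusted p from 0.0647 to 0.102). The call from P14 to P28 was lost without P14 replicate 1 (-2.67, adjusted p = 0.0719), and the size of the change was -2.03 without P28 replicate 1 and -4.01 without P28 replicate 3. Over the whole course from P1 to P28 the log2 fold change was -6.13 (SE 0.78, adjusted p = 3.80e-05), and it was -4.99 without P28 replicate 1 and -6.97 without P28 replicate 3. On recovered reads it was -5.44 with edgeR and -5.48 with DESeq2.

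Meis1 (ENSMUSG00000020160.18; GRCm38 chr11:18879817-19018985, minus strand) stayed at 464 or more normalized counts in every library. Its normalized counts were 1419.9, 747 and 1408 at P1, 1326, 1335 and 1234 at P7, 722, 652 and 695 at P14, and 751, 464 and 819.5 at P28. P7 libraries lay above all P14 and P28 libraries, whereas P1 replicate 2 lay within the range of P28. Meis1 fell from P7 (1298 ± 55.8) to P14 (690 ± 35.6, SD, n = 3) by a log2 fold change of -0.91 (SE 0.26, adjusted p = 0.0223). The call was lost when any 1 of the 6 P7 and P14 libraries was left out, with log2 fold changes of -0.95 to -0.87 and adjusted p from 0.0505 to 0.0733. Between P1 and P28 the log2 fold change was -0.79 (SE 0.26, adjusted p = 0.0292), and it was -0.64 without P1 replicate 1 (adjusted p = 0.126), -0.64 without P1 replicate 3 (adjusted p = 0.120) and -0.54 without P28 replicate 2 (adjusted p = 0.108); with only the P1 and P28 libraries fitted the adjusted p was 0.115. Per length, Meis1 and Meis2 had like mean levels at P1 (12.7 ± 4.26 and 12.5 ± 2.19 RPKM), and Meis1 stood at 9.14 times Meis2 at P7, 4.0 times at P14 and 26.3 times at P28. The P14 ratio was 6.38 without P14 replicate 1, and the P28 ratio was 16.7 without P28 replicate 1 and 45.4 without P28 replicate 3.

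Pbx3 (ENSMUSG00000038718.15; GRCm38 chr2:34171457-34373142, minus strand), a DNA-binding partner of Meis proteins, had the highest level per length of the 10 genes as a mean over the 12 libraries (16.5 RPKM). It was the highest at P1 and P7 (19.6 and 26.7 RPKM), while at P14 En2 was higher (12.9 against 9.45 RPKM) and at P28 Irx1 (11.9 against 10.1 RPKM). The P28 mean of Irx1 rested on replicate 2, with 21.5 RPKM against 9.97 and 4.25 in replicates 1 and 3. Normalized counts below are those of Pbx3. Normalized counts were 1233, 467 and 1499 at P1, 1632, 1085 and 1498 at P7, 666, 599 and 516 at P14, and 718, 962 and 549 at P28. All P7 libraries lay above all P14 and P28 libraries, and P1 replicate 2 lay below the other 2 P1 libraries and below the lowest library of each later age. Pbx3 fell from P7 (1405 ± 285) to P14 (594 ± 75.3, SD, n = 3) by a log2 fold change of -1.23 (SE 0.35, adjusted p = 0.0235). The call was lost without P7 replicate 1 (-1.11, adjusted p = 0.0933), P7 replicate 3 (-1.17, adjusted p = 0.0802), P14 replicate 2 (-1.24, adjusted p = 0.0661) or P14 replicate 3 (-1.13, adjusted p = 0.0826). Between P1 and P28 the log2 fold change was -0.39 (95% confidence interval -1.15 to 0.37), and without P1 replicate 2 it was -0.91 and passed (adjusted p = 0.0197).

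Sequence before the RefSeq start is shown for En1 and Gbx2, which fell to a few reads or none, and for Meis1, which did not. The stretches come from RefSeq on GRCm38.p6, whose table held 6 of the 10 genes (En1, Gbx2, Irx2, Irx3, Meis1 and Meis2; En2, Irx1, Irx5 and Pbx3 were not matched). They are given 5′ to 3′ on the strand of the gene, without bases inside annotated exons, with CpG dinucleotides in capitals, for chr1:120602237-120602417 (plus strand, En1), chr1:89931180-89931426 (minus strand, Gbx2) and chr11:19018986-19019219 (minus strand, Meis1).
En1: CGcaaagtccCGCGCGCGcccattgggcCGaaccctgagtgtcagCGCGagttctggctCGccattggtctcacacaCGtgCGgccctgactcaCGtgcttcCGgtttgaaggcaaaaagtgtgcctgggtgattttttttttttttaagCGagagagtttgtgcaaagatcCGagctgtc
Gbx2: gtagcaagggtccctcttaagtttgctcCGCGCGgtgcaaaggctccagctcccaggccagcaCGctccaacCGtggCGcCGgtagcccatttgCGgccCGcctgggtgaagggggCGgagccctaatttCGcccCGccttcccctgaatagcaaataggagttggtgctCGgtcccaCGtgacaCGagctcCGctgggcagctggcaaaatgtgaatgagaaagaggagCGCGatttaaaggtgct
Meis1: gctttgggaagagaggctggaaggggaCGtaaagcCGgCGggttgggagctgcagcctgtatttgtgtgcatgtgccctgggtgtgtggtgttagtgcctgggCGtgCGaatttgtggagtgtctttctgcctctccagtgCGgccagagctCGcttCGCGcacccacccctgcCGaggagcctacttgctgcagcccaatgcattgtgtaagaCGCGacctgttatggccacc

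In the 250 bases before the RefSeq start, CpG counts were 19 for En1, 18 for Gbx2, 19 for Irx2, 13 for Irx3, 13 for Meis1 and 7 for Meis2, beside a median of 6 over all promoters in the table. The windows of Irx3 and Meis2 lie wholly inside the gene spans of GENCODE, and those of En1, Gbx2 and Meis1 reach into them by 69, 3 and 16 bases, all in exons and left out of the stretches shown, while that of Irx2 lies before its span. All 6 genes were above that median, those that fell to a few reads and those that did not. Letters resembling recognition sites of these protein families were searched on both strands of the same 250 bases: TGACAG (Meis type, found in 16% of 27025 promoters), TGATTNAT (Pbx type, 2.99%), TAATTA (homeodomain core, 4.9%) and ACANNTGT (Iroquois type, 6.29%). The letters TGACAG occurred once in the window of En1, on the opposite strand at bases 177 to 182, so that 5 of the 6 bases close the En1 stretch shown and the last lies in the exon beyond it, and no other match was found in the windows of the 6 genes. A match describes letters in the sequence and not a bound site.

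The Iroquois genes lie in 2 pairs, Irx1 (ENSMUSG00000060969.9; GRCm38 chr13:71957921-71963723) with Irx2 (ENSMUSG00000001504.10; chr13:72628820-72634198), 665 kb apart, and Irx3 (ENSMUSG00000031734.13; chr8:91798525-91802067) with Irx5 (ENSMUSG00000031737.11; chr8:92357625-92376286), 556 kb apart. Of the 4 genes, Irx2 was the only 1 that passed a test, with a fall from P1 to P7 and a rise from P14 to P28. Its normalized counts were 327, 471 and 463 at P1, 195, 109.9 and 204 at P7, 115, 141 and 109.7 at P14, and 419, 318 and 185 at P28. P1 libraries lay above those of P7 and P14, P28 libraries lay above those of P14, and P1 overlapped with P28. The log2 fold change was -1.34 (SE 0.37, adjusted p = 0.0389) from P1 (420.1 ± 81.0) to P7 (169.6 ± 51.9, SD, n = 3), and 1.26 (SE 0.37, adjusted p = 0.0341) from P14 (122 ± 16.5) to P28 (308 ± 117, n = 3). The net log2 fold change from P1 to P28 was -0.51 (95% confidence interval -1.29 to 0.28) and did not pass. The first of these calls was lost when any 1 of the P1 or P7 libraries was left out (log2 fold changes of -1.51 to -1.05, adjusted p from 0.0679 to 0.193), without P14 replicate 1 (adjusted p = 0.0514) and with libraries scaled by totals alone (adjusted p = 0.0504). The call from P14 to P28 was lost without any 1 of the P14 libraries, P28 replicate 1 or 2, or P1 replicate 3 (1.00 to 1.37, adjusted p from 0.05001 to 0.0961) and with totals alone (1.02, adjusted p = 0.0766).

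Irx1, the neighbour of Irx2, had normalized counts of 271, 184 and 438 at P1, 205, 74.6 and 226 at P7, 220.3, 195 and 99.9 at P14, and 304, 682 and 141 at P28. All 4 groups overlapped, with the P28 libraries spread most widely, and no comparison passed. The difference from P1 to P28 was 0.14 on the log2 scale with a 95% confidence interval from -1.09 to 1.37, and it was -0.30 with libraries scaled by totals alone. Per length, the mean of Irx1 was 0.894, 1.24, 1.77 and 1.52 times that of Irx2 at the successive ages, and 0.920 times at P28 without P28 replicate 2.

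Irx5 had normalized counts of 213, 180.0 and 192 at P1, 86.0, 44.5 and 136 at P7, 146, 86.7 and 55.4 at P14, and 181, 189.9 and 93.3 at P28. P1 libraries, which lay within a narrow range, were above all P7 and P14 libraries and overlapped with P28. The log2 fold change from P1 to P7 was -1.26 (SE 0.51, adjusted p = 0.169), which did not pass in the fit over the 12 libraries but did when only the P1 and P7 libraries were fitted (adjusted p = 0.0463). Irx3, its neighbour, had 57.8, 129 and 99.2 at P1, 54.9, 26.2 and 37.2 at P7, 78.4, 41.3 and 39.1 at P14, and 13.2, 20.1 and 71.7 at P28. P28 replicate 3 of Irx3 stood far above the other P28 libraries and inside the range of P1. The log2 fold change of Irx3 from P1 to P28 was -1.71 (SE 0.69, adjusted p = 0.0674), and without P28 replicate 3 it was -2.41 and passed (adjusted p = 0.00900), as it did with libraries scaled by totals alone (-2.14, adjusted p = 0.0210). Per length, the mean of Irx5 was 1.81, 1.98, 1.60 and 4.03 times that of Irx3 at the successive ages, and 9.91 times at P28 without P28 replicate 3.

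Genes of a pair were compared across the 12 libraries, which share the time points, the dissection and the depth of each library. Over the 12 libraries Pearson's r of log2(value + 1) was 0.837 between Irx1 and Irx5, 0.816 between Irx2 and Irx5, 0.683 between Irx1 and Irx2, and 0.172 between Irx3 and Irx5. After the mean of each time point was taken away, so that only differences between libraries of the same age remained, these values were 0.810, 0.650, 0.654 and -0.0858. Irx3 had values within ages of -0.191 with Irx1 and -0.289 with Irx2. Values above 0.654 within ages also linked Irx1 with Pbx3 (0.759) and Gbx2 (0.683), Gbx2 with Pbx3 (0.702) and En1 with Irx2 (0.695), so that they were not confined to the Iroquois genes. Those of Gbx2 rest almost wholly on its P1 and P7 libraries, as it was at or near 0 later. That of En1 with Irx2 includes P28 libraries with 3, 2 and 1 reads of En1. Between Irx3 and Meis2 r was 0.869 over the 12 libraries and 0.855 within ages. The value within ages includes low counts at P28, where replicate 1 held 2 reads of Meis2 and 9 of Irx3. P14 replicate 1 was the highest P14 library and P28 replicate 3 the highest P28 library for both Irx3 and Meis2. En1 and Meis2 had r = 0.828 over the 12 libraries but -0.0527 within ages, as both were highest at P1 and lowest at P28. Gbx2, which was at or near 0 at P14 and P28, had r = 0.762 with Meis2 and 0.739 with En1 over the 12 libraries.

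**Figure D4:**
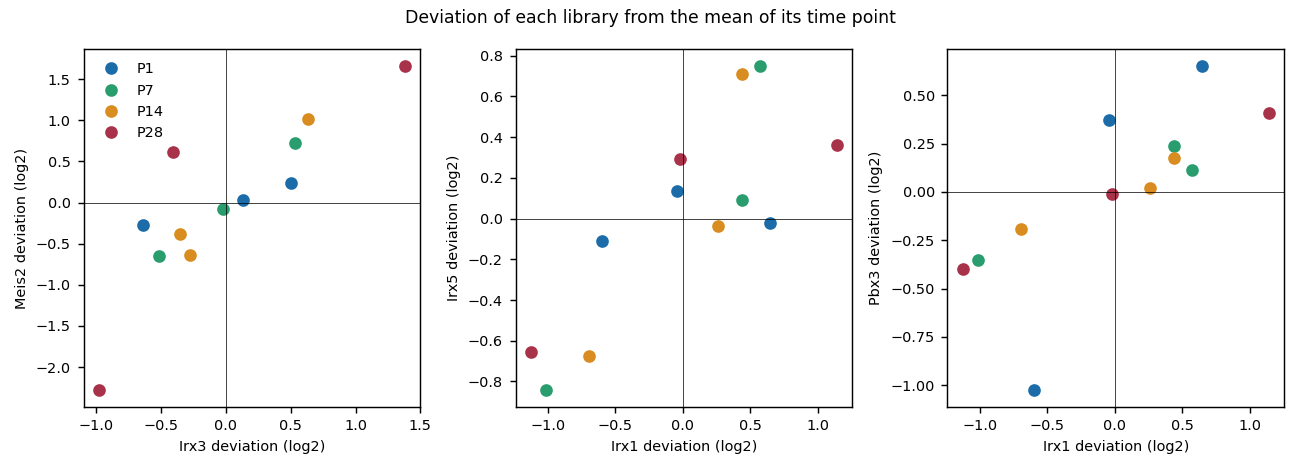
Deviation of each library from the mean of its time point on the log2(value + 1) scale (both axes) for the 3 pairs of genes with the highest correlation within ages: Irx3 with Meis2 (r = 0.855), Irx1 with Irx5 (0.810) and Irx1 with Pbx3 (0.759). Colours give the time point, and each of the 4 ages contributes 3 points. In P28 replicate 1, Meis2 had 2 reads and Irx3 had 9.

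For each of the 7 genes with a mean of at least 100 normalized counts, the genes with the most similar course over the 12 libraries were listed, as a description. Tesk1 (r = 0.947) and Sox21 (0.922), a transcription factor of neural progenitors, were most like Irx2. The mean normalized count of Sox21 was 1295, 183, 186 and 537 at the successive ages, likewise high at P1, low at P7 and P14 and intermediate at P28. Foxb1 (0.962) and Id3 (0.959), an inhibitor of basic helix-loop-helix factors, were most like Meis2, and Foxb1 went from 184 at P1 to 2.20 at P28. Map4k4 (0.969) and Lrrn3 (0.967) were most like Meis1. Lrrn3 stood at 1327 and 1317 at P1 and P7, and at 602 and 573 at P14 and P28. Pbx3 was most like Bach2os (0.962) and Foxk2 (0.920), Irx5 was most like Adgrg1 (0.924), an adhesion G protein-coupled receptor, and Rab23 (0.878), Irx1 was most like Fam204a (0.855) and Opa3 (0.853), and En2 was most like Ccndbp1 (0.918) and Aox3 (0.882).

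Related TALE homeobox genes that were not among the 10 were listed by family, and 9 of 11 passed the filter on low values. Of these 9, none was called from P1 to P7 or from P14 to P28, 3 were lower and none higher from P7 to P14 (10.0% and 10.8% of all genes), and 1 was higher and 1 lower at P28 than at P1 (14.6% and 20.0% of all genes). Their median log2 fold changes were -0.33, -0.58, 0.40 and -0.51 for P1 to P7, P7 to P14, P14 to P28 and P1 to P28, where the medians of all genes were 0.04, -0.09, -0.12 and -0.24. Meis3, a paralog of Meis1 and Meis2 with a mean of 12.8 RPKM, was not called in any of the 4 comparisons. Pknox1, a Meis-related cofactor, fell from 328 ± 24.6 at P7 to 136 ± 23.1 at P14 (SD, n = 3; log2 fold change -1.28, adjusted p = 0.0242), in the same interval as Meis1 and Pbx3. Tgif1, a TALE repressor, fell from 261 ± 52.6 to 123 ± 24.6 in that interval (-1.08, adjusted p = 0.0496, close to the threshold). The calls of these related genes are those of the main test alone, with no library left out. Pbx4 (-3.79 from P7 to P14), Mkx (2.38 from P1 to P28) and Tgif2 (-1.74 from P1 to P28) were the other calls and are named after their values were seen.

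Of 13 genes of the midbrain-hindbrain boundary, the partners of Gbx2 and the Engrailed genes in early patterning, 8 passed the filter. Of these, Fgf15, Fgf18, Lmx1b and Pax8 passed only with the help of their P1 libraries, so that the filter favoured a fall from P1 and no count or median over the 8 genes is given for the comparisons from P1. The other 4 genes were Otx1, Otx2, Pax2 and Lmx1a. From P7 to P14 Pax2 was lower, from P14 to P28 Otx1 and Otx2 were lower, and none of these 4 genes was higher in either step (10.0% and 8.76% of all genes lower, 10.8% and 5.68% higher). Otx2, which opposes Gbx2 at the boundary, had means of 1239.8 ± 695, 796 ± 271, 672 ± 359 and 251 ± 107 at the successive ages (SD, n = 3). Unlike Gbx2 it was present in every library, between 184 and 2041 normalized counts, and it fell from P14 to P28 (log2 fold change -1.37, adjusted p = 0.0434). The calls of these boundary genes are those of the main test alone, with no library left out. Otx1 had 123 reads at P14 and none at P28, at least 33.1-fold lower. This bound covers counting error only and would be lower with any P28 library left out. Pax2, a paired-box factor of the boundary and later of cerebellar interneuron precursors, had means of 266 ± 228, 1707 ± 693, 23.6 ± 12.6 and 18.9 ± 22.0 at the 4 ages, and fell from P7 to P14 by -6.17 (adjusted p = 3.14e-04).

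Anterior Hox genes, which mark hindbrain levels behind the cerebellum, had reads for 12 of 15 genes, of which 3 passed the filter, while Hoxb1, Hoxc4 and Hoxc5 had no read in any library. Hoxa2, the most abundant per length over the 12 libraries, had 333 reads at P1 (74.1 ± 66.0 normalized counts, SD, n = 3), with 0.714 in the lowest P1 library and 129 in the highest, and 1 read at P28. Hoxd1, the next in that order, had no read at P1, and 55 and 25 reads at P14 and P28. Their summed level was 26.7, 0.704 and 13.6 CPM in the P1 libraries and at most 3.75 in any later library. Forebrain transcription factors, of which 2 of 11 passed, summed to between 11.5 and 32.2 CPM at P1 and to at most 3.28 later. By comparison, the 10 homeobox genes summed to 555, 469 and 734 CPM in P1 libraries, 482, 365 and 441 at P7, 271, 219 and 216 at P14, and 242, 235 and 197 at P28. P1 and P7 libraries were all above those of P14 and P28 in this sum. Related TALE homeobox genes summed to 448 to 576 CPM at P1 and 364 to 452 at P7. Their sums were 201 to 290 at P14 and 246 to 373 at P28, where only replicate 3 reached the P7 range. Lower sums at the later ages were thus not particular to the 10 genes. CPM is scaled to library totals. With totals alone, all genes tested had a median of -0.67 on the log2 scale between P1 and P28, against -0.24 in the main test.

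Markers of the cell types that the sort could hold were measured in the same libraries. All 10 astrocyte markers were detected in every library. Aldoc was the most abundant per length as a mean over the 12 libraries, but not at every age. In normalized counts, which are not scaled to length, Aqp4 stood at 14593 and Aldoc at 2039 at P7. At P14 Slc1a3 stood at 59641 and Aldoc at 20076.5. The 10 astrocyte markers summed to 6434 to 7984 CPM in P1 libraries, 3296 to 5927 in P7, 14249 to 17664 in P14 and 29907 to 32221 in P28 libraries. From P1 to P7, the step in which Meis2 and Irx2 fell, 6 of the 10 astrocyte markers were lower and 2 were higher (4.24% and 3.47% of all genes), with a median log2 fold change of -0.98. Those that fell were Aldh1l1, Slc1a2, Gja1, Aldoc, Sox9 and Fgfr3 (-2.36 to -0.75), and those that rose were Gfap and S100b (1.19 and 1.39). From P1 to P28, 8 were higher and 1, Aldh1l1, was lower (log2 fold change -0.76, adjusted p = 0.0286). Aldh1l1, the gene behind the reporter, stood at 5008 ± 1320, 1470 ± 525, 1879 ± 86.1 and 2921 ± 446 normalized counts (SD, n = 3), and its log2 fold change from P1 to P7 was -1.80 (adjusted p = 4.66e-04). Markers of other cells differed between ages as well. Those of the oligodendrocyte lineage (10 genes), summed to 842 to 1251, 2524 to 3773, 29154 to 34732 and 7400 to 11295 CPM at the 4 ages. From P1 to P28, limma's test called 5 of these 10 oligodendrocyte lineage genes up and 4 down, beside 14.6% and 20.0% of all genes. The 4 that fell were Pdgfra, Cspg4, Olig1 and Olig2. Sox10 of the same list was not called (log2 fold change -0.80, adjusted p = 0.1475). En1, Meis1 and Meis2 also fell over this span, and so did some granule neuron lineage and Purkinje cell markers named below. Pdgfra, a growth factor receptor of oligodendrocyte precursors, went from 3646 ± 978 to 353 ± 122 normalized counts (SD, n = 3). Its log2 fold change was -3.40 (adjusted p = 2.25e-07). Cspg4 (-4.82), Olig1 (-2.26) and Olig2 (-3.43) fell as well and are, like Pdgfra, named after their values were seen. Olig1 did not fall at every step, with a rise from P7 to P14 (log2 fold change 2.27, adjusted p = 2.66e-05). Granule neuron lineage markers (10 genes, most abundant per length over the 12 libraries Neurod1) summed to 167 to 312, 748 to 973, 1165 to 2302 and 668 to 838. Purkinje cell markers (10 genes, most abundant per length over the 12 libraries Rora) summed to 345 to 402, 601 to 658, 370.2 to 405 and 386 to 630.2. At P28 against P1, 6 granule neuron lineage markers were higher and 2 lower, and 3 Purkinje cell markers were higher and 3 lower (14.6% and 20.0% of all genes). Those that were lower were Atoh1 (-2.72) and Barhl1 (-4.60) of the granule neuron lineage, and Car8 (-1.09), Foxp2 (-3.64) and Lhx5 (-4.82) of Purkinje cells. Microglia markers (5 genes, most abundant P2ry12) summed to between 51.2 and 269.8 CPM over the 12 libraries, and endothelial markers (5 genes, most abundant Cldn5) to between 79.8 and 1022, highest in P7 replicate 2. The ranks named for these lists are per length as means over the 12 libraries and need not hold at each age. Choroid plexus markers (5 genes, most abundant per length over the 12 libraries Ttr) summed to 34.7 to 85.9 at P1 and 5479 to 15267 at P7. At P14 they were 10790.4, 6100.2 and 88.7, and at P28 8992, 15091 and 1409.8, so that P14 replicate 3 stood apart from the other P14 libraries. The part of these cell types in the levels of the 10 homeobox genes was not tested.

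**Figure D5:**
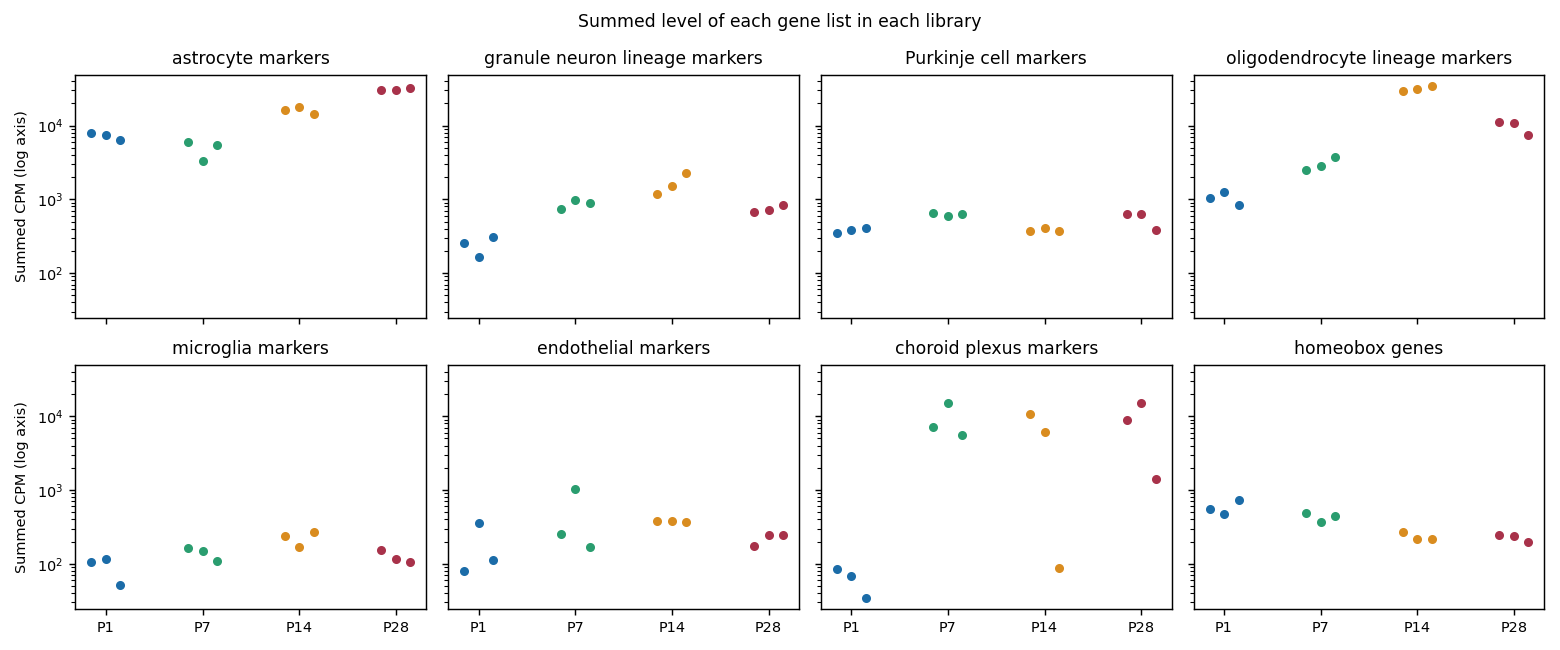
Summed level of each marker list and of the 10 homeobox genes (y axis, CPM, log axis) in each library at P1, P7, P14 and P28 (x axis); points are libraries. Oligodendrocyte lineage markers peaked at P14 (29154 to 34732), astrocyte markers at P28 (29907 to 32221), and the sum of the homeobox genes was lower at P14 and P28 than at P1 and P7.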

How the data were processed

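Total RNA of sorted cells was made into libraries with the Trio RNA-Seq system from polyA RNA per the labels, and sequenced in paired ends. The authors used STAR for alignment to mm10, GenomicAlignments for counts per gene and DESeq2 for normalization; the submitters' processing notes list FastQC 0.11.7, MultiQC 1.11, STAR 2.5.0a and DESeq2 1.30.1. The deposited values are a signal, read counts divided by a size factor per library. Dividing by the smallest step of each library gave whole reads for 100% of values (tolerance 0.001 reads). Columns were matched to libraries through the labels, with 0 left over. Whether separate animals stand behind the 3 libraries of a time point is not given in the sources used here, so p-values measure the spread between these libraries, which may be technical.

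The main test was limma 3.58.1 (R 4.3.3) fitted to log2(value + 1) over all 12 libraries with 1 mean for each time point, a variance trend, a filter of at least 10 in at least 3 libraries, and Benjamini-Hochberg adjustment over the 15464 genes left. Fold changes on this scale can understate those of low genes. For Meis2 from P1 to P28 the value was instead larger in size than with edgeR and DESeq2 (-6.13 against -5.44 and -5.48). On simulated data for P1 to P7, 176 of 200 changed genes were recovered with 5 false calls among 15271 genes. The simulation changed only genes above a set number of reads, all by the same size, with a single level of spread. The raised genes had a median log2 fold change of 1.94. These settings differ from the data, so the share recovered does not measure how reliable the calls given here are. On the recovered reads, edgeR 4.0.16 (quasi-likelihood, TMM) called 1090, 3046, 1977 and 4920 genes from P1 to P7, P7 to P14, P14 to P28 and P1 to P28, and DESeq2 1.42.0 called 1812, 3916, 3296 and 6001. Reads per kb used exon lengths of GENCODE M21 on GRCm38. D130058E05Rik overlaps exons of Gbx2 over 946 bases and Irx3os those of Irx3 over 124, both on the opposite strand, and Gm16140 (opposite strand, 896) and Gm37818 (same strand, 1029) overlap those of Meis1; these have no entry in the table, strand use is not stated, and their reads cannot be told apart from those of the genes named.

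Named genes were the 10 homeobox genes, the 2 genes most like each of those with a mean of at least 100, the 2 most abundant genes per kb of each list of related or boundary genes with those called in a consecutive step at a mean of at least 100, and the most abundant gene of each marker list; some genes under this rule are not reported here. The genes and lists were chosen with earlier results of these data known. Alternatives were edgeR and DESeq2, pseudocounts of 0.1 and 10, no filter and a stricter filter, TMM and library totals, only the libraries compared, a replicate block, the threshold of the study, and leaving out each library.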

Additional observations from a re-analysis of the deposited data

How the results depend on the processing

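With at least 10 reads required in every library, 1 of the genes was called from P1 to P7, 1 from P14 to P28 and 1 from P1 to P28, and 3 differed among the 4 time points, since that filter removes genes that fell to low counts. With only the libraries of the 2 time points compared, fewer samples entered the limma fit and 0 were called from P14 to P28. With 1 library left out, the number called over the 9 genes without Gbx2 ranged from 0 to 2 from P1 to P7 and from 2 to 4 from P1 to P28. Over all 10 genes it ranged from 1 to 3 from P7 to P14 and from 0 to 3 from P14 to P28. In the test among the 4 time points Pbx3 was the only gene lost, and Irx3 was gained without P28 replicate 3. Fitted over all 12 libraries, edgeR and DESeq2 called as many of the genes as limma in each comparison, with Gbx2 left out of those that involve P1.

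Some differences that did not pass the test turned sign, and the cause was not tested. En2 from P1 to P7 was -0.0191 with edgeR and -0.0311 with DESeq2. With libraries scaled by totals alone, Irx1, Irx5 and Meis2 from P7 to P14 were -0.16, -0.11 and -0.0738, and En2 and Irx1 from P1 to P28 were -0.21 and -0.30. With 1 library left out, the log2 fold change ranged from -0.27 to 0.42 for En2 from P1 to P7, -0.12 to 0.34 for Meis1 from P1 to P7, -0.41 to 0.45 for Irx1 from P7 to P14, -0.28 to 0.52 for Irx5 from P7 to P14, -0.33 to 0.55 for Meis2 from P7 to P14, -0.76 to 0.0791 for En2 from P14 to P28, -0.22 to 0.19 for Meis1 from P14 to P28, -0.13 to 0.71 for En2 from P1 to P28 and -0.43 to 0.70 for Irx1 from P1 to P28. Scaling by totals moved the share of called genes that were higher from 51.9% to 32.7% for P7 to P14, from 39.3% to 19.0% for P14 to P28 and from 42.3% to 20.8% for P1 to P28, and the median of all genes from -0.09 to -0.35, -0.12 to -0.35 and -0.24 to -0.67. For P1 to P7 the share went the other way, from 45% to 51%, and the median from 0.04 to 0.10.

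Replicate numbers are shared across ages in the labels, but same-numbered libraries deviated together with r of only -0.029 to 0.139 (1 of 18 pairs over 0.1, although 9 of 12 libraries correlated best with their own number), so they were not treated as pairs. With a replicate block, Irx2 from P1 to P7 stayed at -1.34 with an adjusted p of 0.0577 and was no longer called. Pbx3 no longer passed the test among the 4 time points (adjusted p = 0.0503). The block left the counts over all 10 genes at 3 from P7 to P14, 3 from P14 to P28 and, with Gbx2 among them, 4 from P1 to P28. Depth limits Gbx2 at P14 and P28 and En1 at P28, which rest on 0, 1 and 6 reads. It also limits Meis2 in P28 replicate 1, which held 2 reads of that gene.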
